A study of Mus musculus with 37 samples.

Results

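Healthy wild-type mice with and without a cre transgene were compared to see what the transgene alone goes with in the kidney. The 6 arrays were chosen by their labels (healthy phenotype, no floxed allele, 10 weeks of age) out of 37 kidney arrays in the series. Mice 14, 15 and 16 were ggt-cre+;WT and mice 17, 18 and 19 were ggt-cre-;WT, with 1 kidney array each, and all 6 carried a mixed C57Bl/6 and sv129 background. They had no floxed gene and, per the design text, no ureter obstruction, although a treatment field shared by every sample names that operation. Sex, litter and the zygosity and insertion site of the transgene are not given in the sources used here. The other 31 arrays came from floxed Twist1 and floxed Snai1 lines of the same study. These were obstructed and untouched contralateral kidneys of 10-week-old mice, and healthy kidneys of 26-week-old deleted mice. Per the labels, the Snai1 line carried Balb/c in place of sv129. In these lines the mice with cre had also lost the floxed gene, so only the healthy wild-type mice give cre without a deletion.

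Cre is a bacteriophage recombinase that joins DNA at loxP sites. It is used in mice to delete floxed genes in 1 cell type, and the promoter that drives it sets the cell type. Gamma-glutamyl transferase is an enzyme of the brush border of proximal tubule cells, the cells that take back glucose, amino acids and phosphate from the filtrate, and per the labels the ggt-driven cre deletes in those cells. Cre can also cut loxP-like sequences in a genome without floxed alleles, and the surroundings of an inserted transgene are inherited with it. For these reasons a cre-only group is a common control.

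The 6 arrays measured total RNA of whole kidney, in which fewer cells of a type and less RNA per cell cannot be told apart. Between 37.8% and 40.1% of probes were detected per array. All values below are normalised levels on the log2 scale, where a difference of 1 is a doubling, and all differences are cre+ minus cre-. Proximal tubule identity was present, with 27 of 29 measured transporters and 23 of 25 enzymes and regulators detected in all 6 kidneys. Mouse 17, which lacked cre, stood apart. It correlated at 0.975 to 0.981 with the other 5 kidneys, which correlated at 0.988 to 0.99 with each other. Xist, the RNA that silences 1 X chromosome in females, was 7.22 in mouse 17 and 4.33 to 4.51 in the other 5. Eif2s3y, a translation factor gene of the Y chromosome, was 4.29 in mouse 17 and 8.89 to 9.50 in the others. Mouse 17 thus read as female and the other 5 as male, so the cre- group held both sexes and the cre+ group 1. The called genes, Abhd1 and the medians of gene lists are also given without mouse 17. The counts by chromosome and most other single genes are given with all 6 kidneys only, and mouse 17 can move them.

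For almost all genes the group means lay close together in kidneys with and without cre. Of 12866 genes tested, 2 passed an adjusted p of 0.05 (0.0155%), Ccng2 being higher and Aldh1a7 lower with cre (0.00777% in either direction). The difference lay between -0.33 and 0.31 for the central 90% of genes by percentile, with a median of -0.01. Between 9742 and 10229 of the tested genes were detected per kidney, and undetected genes, near background, are counted in that span. The difference was over 1 in either direction for 64 genes (0.497%) and over 2 for 12. At an unadjusted p under 0.05 there were 306 genes (2.38%), 139 higher (1.08%) and 167 lower (1.3%). The 3 kidneys with cre lay wholly above the 3 without for 592 genes (4.6%) and wholly below for 599 (4.66%). Without mouse 17 the same 2 genes passed and 285 had an unadjusted p under 0.05.

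**Figure D1:**
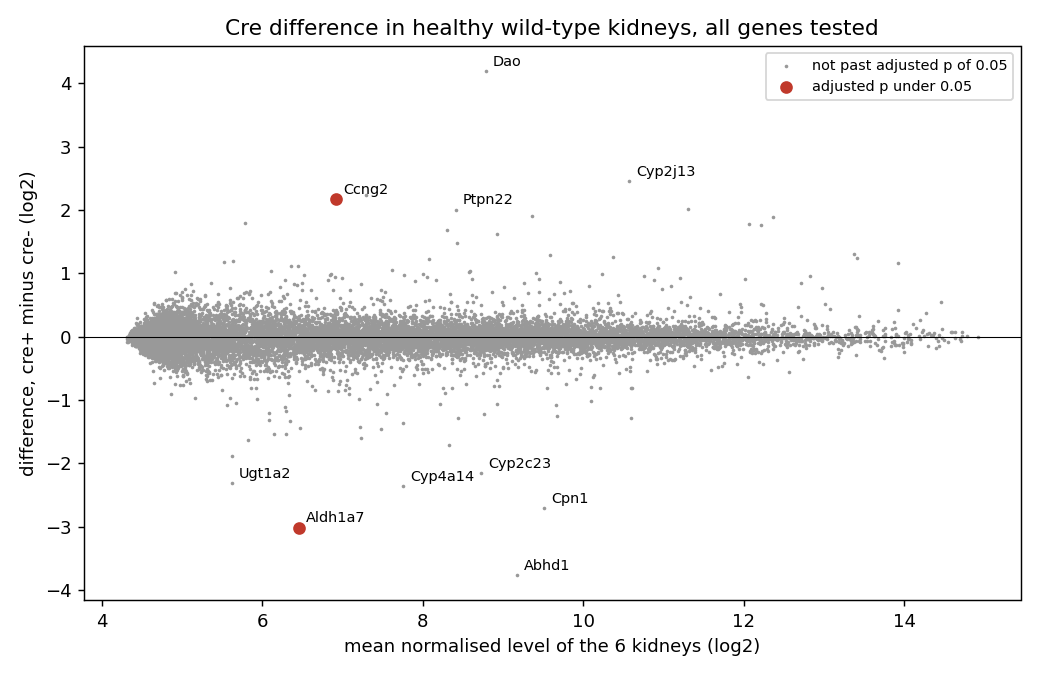
Difference between healthy wild-type kidneys with and without cre (log2, y axis) against the mean level of the 6 kidneys (log2, x axis), 1 point per gene. The 2 red points, Ccng2 at 2.17 and Aldh1a7 at -3.02, passed the adjusted p of 0.05, and larger or similar differences such as those of Dao and Abhd1 did not.

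Ccng2 encodes cyclin G2, an atypical cyclin associated with arrest of the cell cycle. Its level was 8.07, 7.57 and 8.36 in mice 14, 15 and 16 with cre and 5.29, 6.98 and 5.22 in mice 17, 18 and 19 without it. These values come from the only probe of the gene, so no other probe can be set beside them. The groups did not overlap, and within the cre- group mouse 18 lay well above the other two. The mean was 8.00 ± 0.40 (SD, n = 3) with cre and 5.83 ± 1.00 without, a difference of 2.17 (SE 0.29, limma adjusted p = 0.000528) or 4.5-fold. The other 31 arrays read 7.15 to 8.62, with and without cre. It was therefore the 3 cre- kidneys that lay below every other array of the series, while the 3 cre+ kidneys lay among the rest. The spread that the test used came from all groups. It was 0.237 (SD) within the other groups and 0.76 within the 6 kidneys, and when these 6 were analysed alone the difference was 2.22 with an adjusted p of 0.992. Without mouse 17 it was 1.90 (adjusted p = 0.0105).

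The 250 bases before the annotated start of Ccng2 are shown because it was the gene that passed as higher with cre (RefSeq, GRCm38.p6, chr5:93267323-93267572, plus strand). The capitals mark a GC box, searched as GGGCGG on both strands.
Ccng2: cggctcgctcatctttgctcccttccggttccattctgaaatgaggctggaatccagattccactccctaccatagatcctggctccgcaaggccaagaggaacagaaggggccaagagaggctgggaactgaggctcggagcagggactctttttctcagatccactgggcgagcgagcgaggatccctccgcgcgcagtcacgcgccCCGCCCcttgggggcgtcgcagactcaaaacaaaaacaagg
The window held 1 such box and 59.6% G or C. Of 32851 promoter windows of this length, 32.7% held at least 1.

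Aldh1a7 encodes a rodent aldehyde dehydrogenase closely related to Aldh1a1, an enzyme that oxidises retinaldehyde to retinoic acid. It was 4.44, 4.34 and 6.08 in mice 14, 15 and 16 and 6.92, 8.43 and 8.54 in mice 17, 18 and 19. The groups did not overlap, but mouse 16 with cre and mouse 17 without it lay next to each other, between the extremes. The difference was -3.02 (SE 0.53, limma adjusted p = 0.0287, 4.95 ± 0.98 against 7.97 ± 0.90, SD, n = 3 each). With cre it was detected in 1 of 3 kidneys and without it in 3 of 3, so the fold of 8.09 is approximate. Mice 14 and 15 lay below all of the other 31 arrays, which read 5.00 to 9.10. Leaving out mouse 14, 15, 18 or 19 ended the call (adjusted p = 0.536, 0.152, 0.141 and 0.358), as did the analysis of the 6 kidneys alone (0.992). Without mouse 17 the difference was -3.54 (adjusted p = 0.0105).

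Aldh1a1, next but 1 to Aldh1a7 in the order of tested genes on chromosome 19, did not pass. It read 5.34, 6.09 and 5.83 with cre and 7.01, 6.99 and 7.57 without, and the groups did not overlap. The difference was -1.44 (SE 0.42, limma adjusted p = 1). Each of the pair had 1 probe on the array, and how far the probes tell these paralogs apart was not tested. The 250 bases before a start of each gene are shown because the pair share sequence there (RefSeq, GRCm38.p6; Aldh1a7 at chr19:20727557-20727806, minus strand; Aldh1a1 at chr19:20601718-20601967, plus strand). The capitals mark their longest common run.
Aldh1a7: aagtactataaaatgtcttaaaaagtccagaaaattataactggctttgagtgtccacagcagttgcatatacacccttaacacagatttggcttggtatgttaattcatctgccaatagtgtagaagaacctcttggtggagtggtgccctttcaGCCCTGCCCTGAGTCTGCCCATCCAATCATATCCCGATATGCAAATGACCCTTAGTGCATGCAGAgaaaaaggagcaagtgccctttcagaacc
Aldh1a1: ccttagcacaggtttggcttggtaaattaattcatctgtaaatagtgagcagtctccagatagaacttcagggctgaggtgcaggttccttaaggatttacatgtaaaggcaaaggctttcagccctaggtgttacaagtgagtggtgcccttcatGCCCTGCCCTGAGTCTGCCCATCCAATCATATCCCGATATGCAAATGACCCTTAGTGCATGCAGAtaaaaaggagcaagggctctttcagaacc
The run was 65 bases long and occurred in the windows of these 2 genes only among the 32851 searched. Aldh1a1 has 2 annotated starts in the table, and the 1 with the longer common run is shown.

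To see how far single genes separated the groups, the 12 genes of lowest p in each direction whose groups did not overlap were listed, including the 2 that passed. Apart from Ccng2 and Aldh1a7 none of these 24 passed the adjusted p, and since they were listed for not overlapping, that they do not is no finding. Of the other 11 listed as higher with cre, Ggt7 had the widest difference. It belongs to the gamma-glutamyl transferase family, and read 6.49, 6.33 and 5.86 with cre against 4.72, 5.50 and 4.88 without (1.19, SE 0.33, adjusted p = 0.833). Its only probe was detected in 4 of the 6 kidneys. In contralateral kidneys the means of Ggt7 were 5.405 with cre and 5.531 without in the Twist1 line, and 4.47 and 4.566 in the Snai1 line. No probe used here carried the symbol Ggt1, the family's brush border enzyme. Of the 3 family members measured Ggt7 alone had an unadjusted p under 0.05, which 2.38% of all genes had.

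Among the others, Tceanc2 read 6.90, 7.01 and 7.00 with cre and 6.02, 6.09 and 6.60 without (0.73, SE 0.20). The 3 other detected probes of Tceanc2 gave differences of 0.17, 0.04 and 0.16, and in the first of them mouse 19 without cre, at 6.88, was the highest kidney. Twf1, an actin-binding twinfilin, read 6.83, 6.58 and 6.52 against 5.54, 6.29 and 6.08 (0.68, SE 0.19). Tbc1d23, a protein of the Golgi, read 8.16, 8.19 and 8.15 against 7.76, 7.75 and 7.49 (0.50, SE 0.15). On the probes used, the kidneys with cre were close together and those without it were spread more widely. Nab2, a corepressor of EGR transcription factors, differed by 0.66 and was detected in 3 of 3 kidneys with cre and 1 of 3 without. The probes used for Olfr134, Herc1, Dlx3, 2610318N02Rik, Lca5 and Sectm1a were detected in no kidney without cre. Their levels with cre were 5.66 or lower, near background, and at least 1.15-fold (Olfr134) to at least 1.37-fold (Sectm1a) higher. Another probe, detected in some of the 6 kidneys, gave 0.27 for Herc1 and 0.41 for Sectm1a, but -0.02 for Lca5. That Lca5 probe was highest in mouse 16 with cre (5.30) and mouse 17 without it (5.02).

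On the lower side the widest difference after Aldh1a7 was that of Cpn1, the catalytic subunit of carboxypeptidase N. It read 7.05, 7.37 and 10.08 with cre and 11.08, 10.81 and 10.71 without (-2.70, SE 0.57, limma adjusted p = 0.156). Mice 14 and 15 were far below all other kidneys, the other 31 arrays reading 9.36 to 12.25, while mouse 16 lay close to the cre- group. Without mouse 16 the difference was -3.66 and passed (adjusted p = 0.000778), and without mouse 14 or 15 it was -2.15 and -2.30 (adjusted p = 1 and 0.627). Another detected probe of Cpn1 gave 6.56, 6.55 and 8.20 against 8.83, 8.87 and 8.99, in the same order of groups.

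Prune2 read 4.75, 5.33 and 4.93 with cre and 7.16, 6.42 and 6.32 without (-1.63, SE 0.38, adjusted p = 0.364), on the 1 of its 4 probes that was detected. Psmd8, a regulatory subunit of the proteasome, read 10.19, 10.14 and 10.25 against 10.95, 11.02 and 11.04 (-0.81, SE 0.21). Mrps12, a protein of the mitochondrial ribosome, read 11.44, 11.55 and 11.53 against 12.04, 11.90 and 11.94 (-0.46, SE 0.13). In Psmd8 and Mrps12 the replicates lay within 0.2 of each other in both groups, and another detected probe of Mrps12 gave a difference of -0.26. Zfp27, Cmss1, R3hcc1l, Olfr133, Prb1 and Nfam1 differed by -0.41 to -0.84, but another detected probe of Zfp27 gave 0.09. Of these, Olfr133, Prb1 and Nfam1 were detected in no kidney with cre. Olfr133 and Olfr134, olfactory receptors of 1 large family, differed in opposite directions near background.

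**Figure D2:**
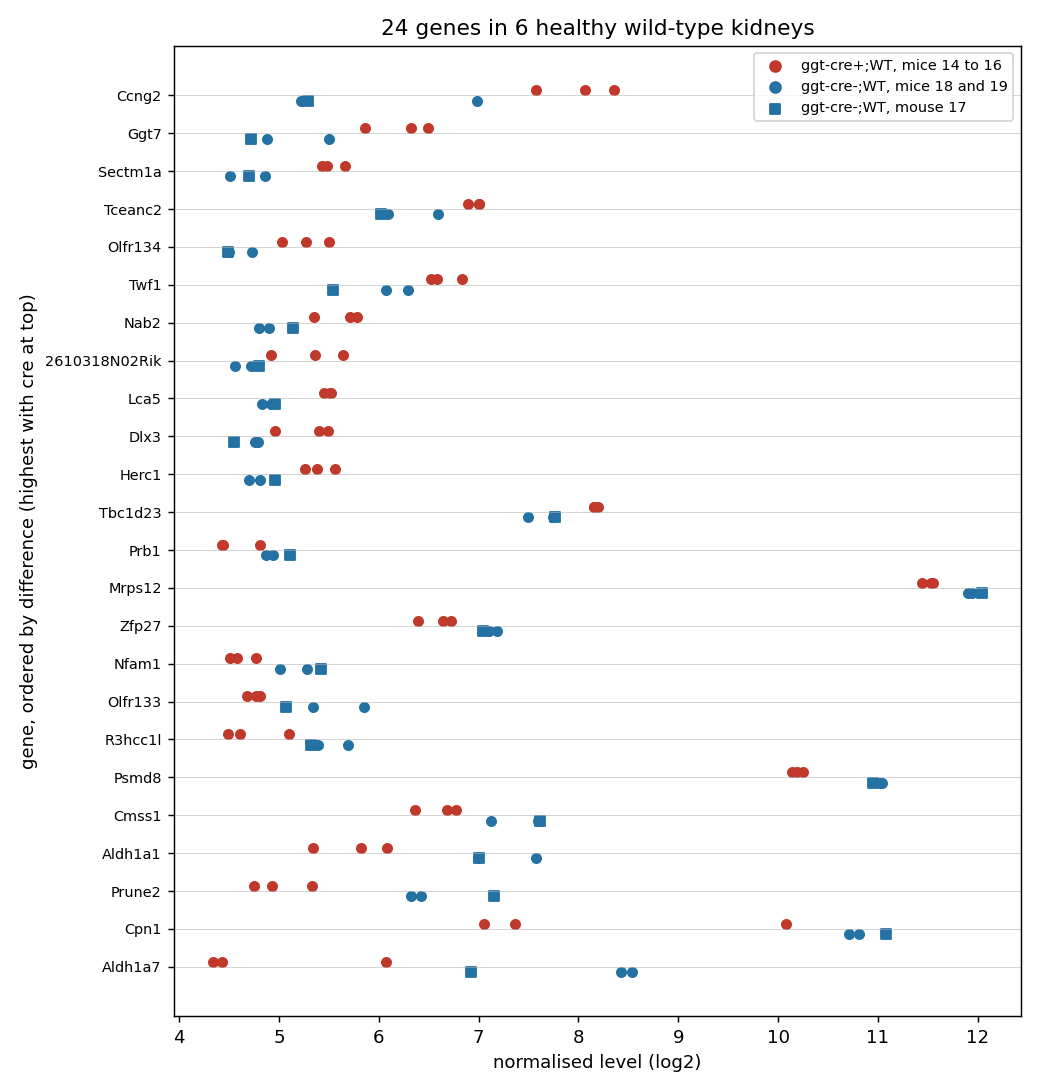
Normalised level (log2, x axis) of the 24 listed genes in each of the 6 kidneys, red for cre+ and blue for cre-, the square being mouse 17. Genes were listed for groups that do not overlap; Ccng2 and Aldh1a7 show the 2 called differences, and in Cpn1 mice 14 and 15 lie apart from mouse 16.

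Larger differences than these were seen in genes whose level varied in the whole series, which were picked after their values were seen. Abhd1, an alpha/beta hydrolase, read 7.25, 7.35 and 7.27 with cre and 11.58, 10.71 and 10.86 without. The groups lay far apart with little spread inside them, and the other probes of the gene gave differences of -3.66 and -4.07. The difference was -3.76 (SE 1.23, limma adjusted p = 1 with the spread of all groups). With the 6 kidneys alone it was -4.03 and passed (adjusted p = 0.0069), as it did there without mouse 17 (-3.74, adjusted p = 0.000357). Both levels occurred in groups with and without cre elsewhere: 17 of the other 31 arrays lay at or below the cre+ kidneys and 4 at or above the cre- kidneys. Contralateral kidneys without cre read 6.95 to 7.19 in the Twist1 line and 10.62 to 11.22 in the Snai1 line.

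**Figure D3:**
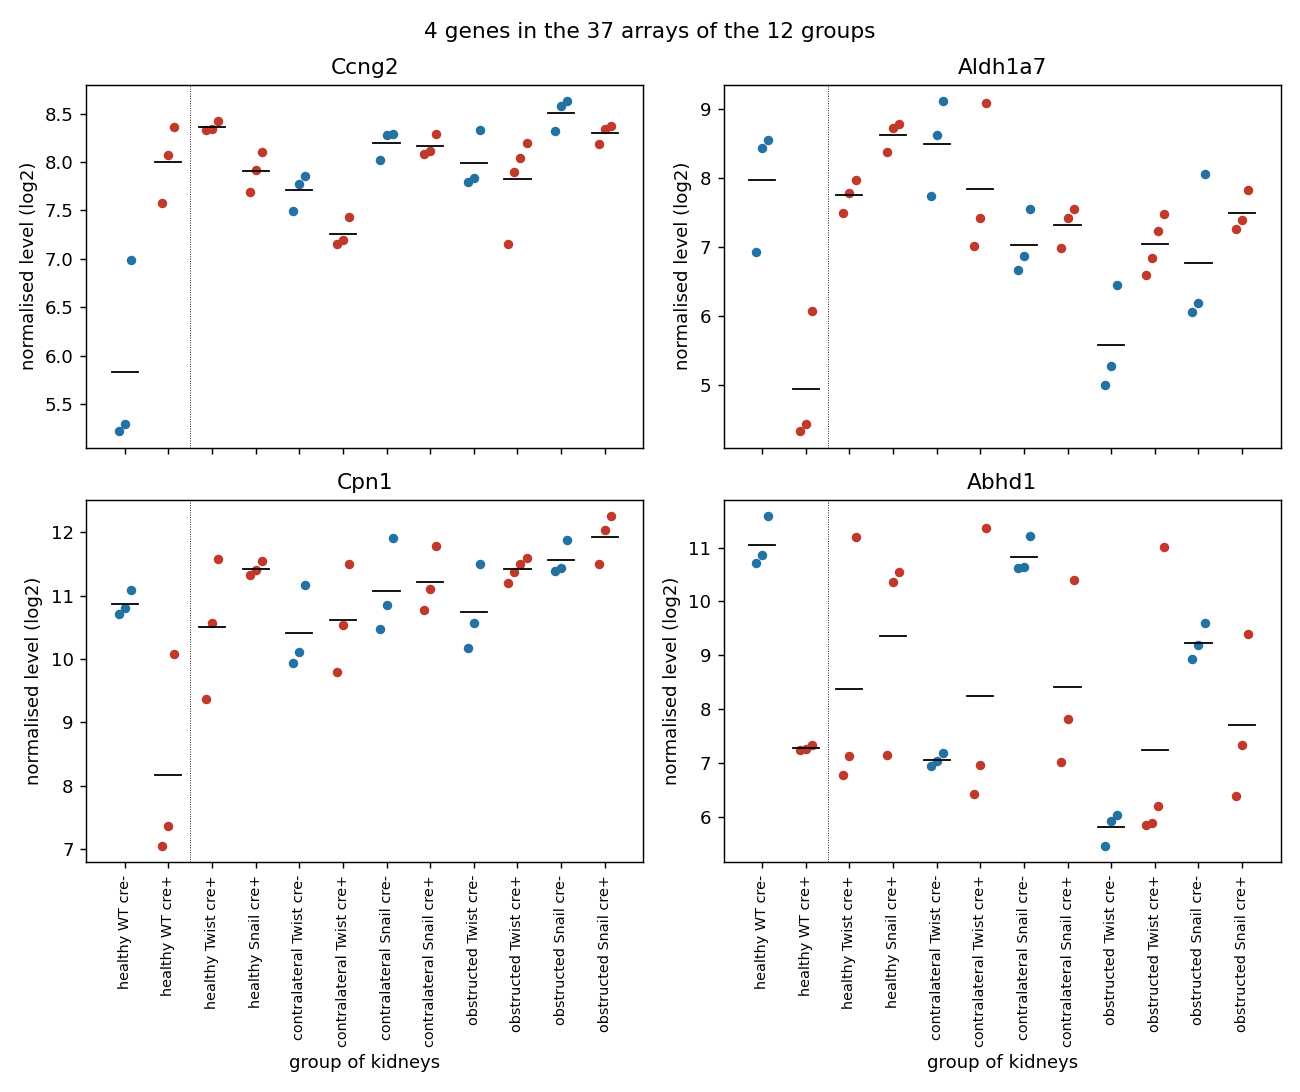
Normalised level (log2, y axis) of Ccng2, Aldh1a7, Cpn1 and Abhd1 in every array of the 12 groups (x axis), red with cre and blue without, bars being group means. The healthy wild-type groups stand left of the dotted line; Ccng2 is low in the 3 healthy cre- kidneys alone, Aldh1a7 and Cpn1 are lowest in 2 cre+ kidneys, and Abhd1 takes high and low levels in several groups.

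Where the differing genes lie was described by the gene order of GRCm38.p6, since the array files name no build. On chromosome 19, 27 of 458 tested genes had an unadjusted p under 0.05 (5.9%, against 2.38% over all genes), and 21 of them were lower with cre. The share was higher only on chromosome 3 (42 of 628, 6.69%), and chromosome 16 followed (18 of 414, 4.35%). Of the 24 listed genes 5 lay on chromosome 19, all lower with cre: Prune2, Aldh1a1, Aldh1a7, R3hcc1l and Cpn1. Among the first 153 genes in the chromosome's order 3 had such a p (1.96%), among the middle 152 there were 11 (7.24%) and among the last 153 there were 13 (8.5%). The median difference was near 0 in all 3 stretches (0.01, -0.04 and -0.01), so most genes there did not share the lower level.

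In 15 of the 21 lower genes of chromosome 19 mice 14 and 15 were the lowest 2 of the 6, as they were in 53 of 167 such genes over all chromosomes and in 5.87% of all genes tested. Cyp2c23, a cytochrome P450 next to Cpn1, read 6.88, 7.52 and 8.56 with cre and 10.55, 9.35 and 9.52 without (-2.15, SE 0.68). Hps1, a subunit of a complex of lysosome-related organelles, read 5.25, 5.16 and 6.64 against 6.59, 7.29 and 7.14 (-1.33, SE 0.34). Mpeg1, a pore-forming protein of macrophages, read 4.49, 4.76 and 7.02 against 6.53, 7.57 and 6.12 (-1.31, SE 0.45). In all 3 mouse 16 was the highest of the cre+ kidneys, and in Hps1 and Mpeg1 it overlapped the cre- group. None passed the adjusted p. Mice 14 and 15, like mouse 17, have sample identifiers of another form than mice 16, 18 and 19, and the meaning of the forms is not given in the sources used here. With the form as a block in the 6 kidneys alone, Ccng2 did not pass (2.46, limma adjusted p = 0.627) and Aldh1a7 did (-2.48, adjusted p = 0.00305). Within a form 1 arm is a single kidney, mouse 17 in the one and mouse 16 in the other, and it is assumed to vary like the other groups, which supply the spread. On that basis Ccng2 differed by 2.53 and 2.26 (adjusted p = 0.0113 and 0.0416), Aldh1a7 by -2.54 and -2.41 (0.574 and 1) and Cpn1 by -3.87 and -0.69 (0.0214 and 1).

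**Figure D4:**
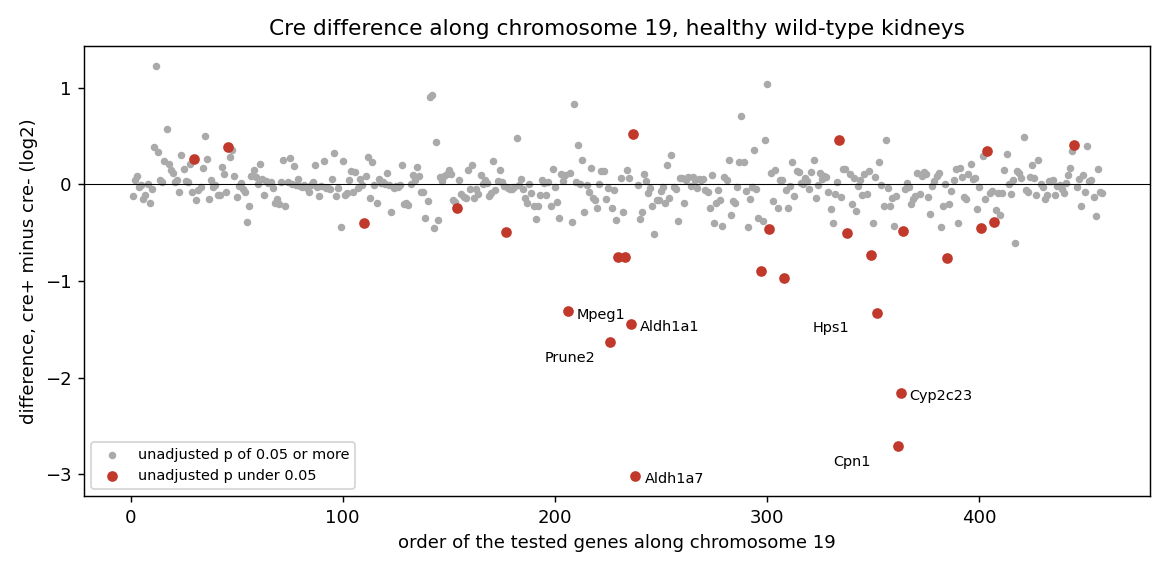
Difference between healthy wild-type kidneys with and without cre (log2, y axis) for the 458 tested genes of chromosome 19 in gene order (x axis), red where the unadjusted p was under 0.05. Of the 27 red points 21 lie below 0, and 3 of the 27 lie among the first 153 genes.

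On chromosome 3 the genes split both ways, 17 higher and 25 lower, and several separated mice 14 and 16 from the rest. Mettl14, a subunit of the RNA adenosine methyltransferase, read 4.47, 7.12 and 4.55 with cre and 7.12, 6.86 and 6.79 without. Golph3l, a Golgi protein, read 6.56, 7.59 and 6.56 against 8.69, 7.56 and 7.64. S100a13, a calcium-binding protein, read 7.30, 8.34 and 7.39 against 9.53, 8.46 and 8.24. In each of these mouse 15 with cre lay with the cre- kidneys, within their range in Golph3l and S100a13 and at its upper end in Mettl14. On chromosome 5 Bmp2k, a protein kinase, and Atp10d, a phospholipid flippase, showed the same order, with mouse 15 at 5.64 and 8.90 and mice 14 and 16 at 4.70 to 4.73 and 6.75 to 6.76. In Mettl14 and Golph3l mice 14 and 16 lay below all of the other 31 arrays, which read at least 6.97 and 7.12. In Bmp2k and Atp10d mice 14 and 16 lay within the other arrays (4.49 to 5.36 and 6.44 to 8.85), and mouse 15 lay above them. The 3 cre- kidneys also lay above those arrays in Bmp2k. Without mouse 15, Mettl14 (-2.41), Golph3l (-1.40), Bmp2k (-1.40) and Atp10d (-2.42) passed the adjusted p beside Ccng2. With all 6 kidneys and probes averaged, Mettl14 differed by -0.79 in place of -1.54 and Bmp2k by -0.69 in place of -1.08. Golph3l and Atp10d did not change by that. The levels of Mettl14 and Bmp2k in mice 14 and 16 were near background. All of these genes were picked after their values were seen.

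None of 38 gene lists held a member that passed, but only 2 of all 12866 genes did (0.0155%), so this tells little about the lists. The list medians ran from -0.25 to 0.79, and 35 of 38 lay within 0.2 of 0, beside a median of -0.01 over all genes. Without mouse 17 they ran from -0.36 to 0.475, 34 of 38 lay within 0.2 of 0, and 13 had the opposite sign. The lowest of these was that of 5 measured genes known to differ among inbred strains, at -0.05 with all 6 kidneys. Among 29 proximal tubule transporters, the carriers of the cells in which the transgene acts, 10 were higher and 19 lower (median -0.07, or -0.02 without mouse 17). Slc15a2, a peptide transporter, was the 1 member with an unadjusted p under 0.05 (2.38% of all genes had such a p). It read 10.87, 8.19 and 10.80 with cre and 11.30, 11.51 and 10.91 without, mouse 15 being far below the others (-1.28, SE 0.55). Among 25 proximal tubule enzymes and regulators the median was 0.03, or -0.01 without mouse 17. Dao, D-amino acid oxidase, read 10.95, 10.85 and 10.85 with cre and 4.59, 10.77 and 4.71 without (4.19, SE 1.31, limma adjusted p = 1). Its other probe read 9.17 to 9.995 in all 6 kidneys, so the probes of Dao disagree.

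Of 20 tubular injury genes 7 were higher and 13 lower, with no unadjusted p under 0.05, which 2.38% of all genes had. Their median was -0.06, and 0.13 without mouse 17. Of 29 DNA damage and p53 target genes 14 were higher and 15 lower (median -0.01, or -0.05 without mouse 17). Gadd45g, a stress-induced growth arrest gene, was the 1 member with an unadjusted p under 0.05. It read 11.66, 11.92 and 11.61 with cre and 12.36, 11.57 and 13.16 without, and the groups overlapped (-0.63, SE 0.27). The medians were 0.06 for 20 apoptosis genes, -0.12 for 15 genes of the G2 and M phase and -0.06 for 23 of the G1 and S phase. Without mouse 17 they were 0.04, -0.2 and -0.04. The last 3 lists had no member with an unadjusted p under 0.05. At the share over all genes, lists of this size hold few such members, so these counts tell little about the lists.

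Over all 6 kidneys interferon-stimulated genes had the lowest list median, -0.25 over 29 measured members, of which 27 were lower and 2 higher with cre. None passed the adjusted p. Unadjusted p was under 0.05 for 4, all lower (1.3% of all genes were), and 8 lay wholly below the cre- kidneys (4.66% of all genes did). The median was -0.26 without mouse 17. Ifit3, an antiviral protein gene on chromosome 19, read 7.16, 8.25 and 8.06 with cre and 9.23, 8.34 and 8.59 without (-0.89, SE 0.36). Lgals3bp, a secreted glycoprotein, read 8.43, 8.97 and 8.64 against 9.22, 9.32 and 9.22 (-0.57, SE 0.28). Ifi27 read 10.56, 10.87 and 10.67 against 11.26, 11.06 and 11.10 (-0.44, SE 0.21). The groups did not overlap in these 3, and mouse 14 was the lowest kidney in each. Gbp3, a guanylate-binding GTPase, differed by -1.60, with mouse 17 at 9.82 and the other 5 at 6.37 to 7.17. Antigen presentation genes had a median of -0.09 (18 members), macrophage and myeloid genes of -0.05 (21) and chemokines and cytokines of -0.04 (25). Without mouse 17 these were -0.02, 0.04 and -0.06. No member of the 3 lists was called, beside 0.0155% of all genes.

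Of 14 heat shock chaperones 12 were lower and 2 higher with cre. Their median was -0.13, and -0.285 without mouse 17, below that of the interferon list. Hspa1b, an inducible chaperone, read 5.01, 7.52 and 6.63 with cre and 6.42, 6.32 and 8.99 without, so the highest kidney lacked cre and the next highest carried it. Egr1, an immediate early gene, was 10.91 in mouse 19 and 7.23 to 8.82 in the other 5. Hspb8, a small heat shock protein, read 8.24, 8.50 and 8.96 against 9.08, 9.39 and 9.56 (-0.77, SE 0.33), with no overlap. None of the 3 passed the adjusted p.

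The highest list median over all 6 kidneys, 0.79, was that of 14 genes known to be higher in male than in female mouse kidney, all 14 of them higher with cre. Without mouse 17 the median was 0.03. Cyp2j13 read 11.59 to 11.82 in 5 kidneys and 4.74 in mouse 17. The 12 measured genes known to be higher in female mouse kidney did not move as 1, with 5 higher and 7 lower with cre. Their differences ran from -2.36 to 1.78 (median -0.12, or -0.0008 without mouse 17). Cyp4a14, the lowest of these, read 12.37 in mouse 17 and 5.97 to 7.88 in the others. Adipose tissue genes had a median of 0.43, or 0.48 without mouse 17, and were highest in 1 kidney of the cre+ group. Adipoq, the adipocyte hormone adiponectin, was 7.85 in mouse 16 and 4.68 to 5.54 in the other 5, and Car3 was 8.23 in mouse 16 and 4.29 to 6.43 in the others. The mean level of the 13 adipose genes was 6.455, 6.62 and 7.54 in mice 14, 15 and 16 and 6.40, 6.31 and 6.32 in mice 17, 18 and 19. Mouse 16 was thus furthest from the rest, though mice 14 and 15 also lay above the cre- kidneys. The part of adipose tissue in any difference was not tested.

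Many of the widest differences among the 6 kidneys set single mice apart. The range over the 6 kidneys exceeded 2 for 234 genes (1.82%), of which 20 separated the groups without overlap and 2 were called. Over all genes tested, 4.6% lay wholly above with cre, 4.66% lay wholly below and 0.0155% were called. The 20 genes are thus near the share over all genes. The widest gap set mouse 17 apart in 110 of the 234, 49 higher and 61 lower in it. Mouse 18 was apart in 22, mouse 16 in 21, and mice 15 and 17 together in 13. The widest gap ran between the kidneys with and without cre in 3 of the 234, all lower with cre. Of the genes with a range over 4, 16 of 31 had mouse 17 apart. Among these were Ugt1a2, a glucuronosyltransferase, at 11.46 in mouse 17 and 4.33 to 4.54 in the others. Acsm3, a medium-chain acyl-CoA synthetase, was 7.75 in mouse 17 and 12.86 to 13.30 in the other 5.

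**Figure D5:**
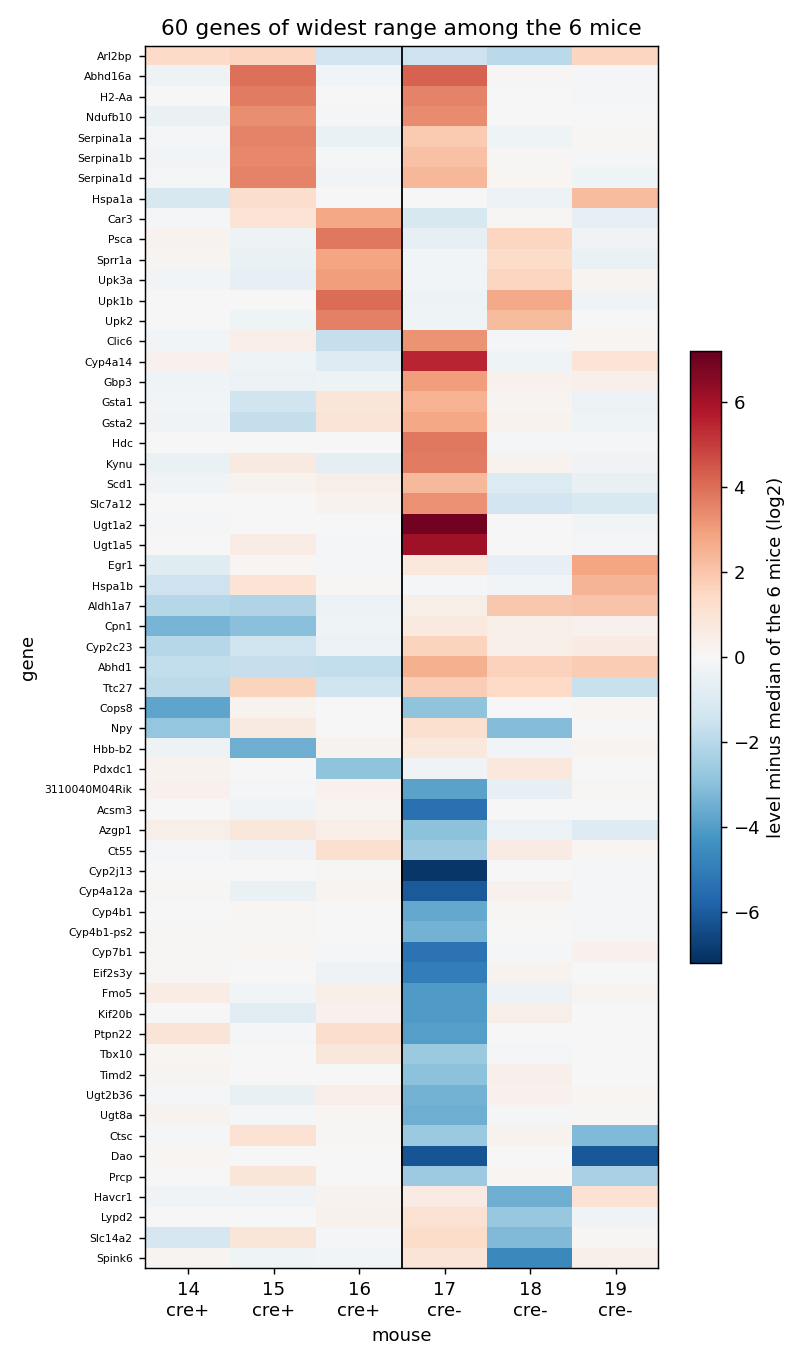
Level minus the median of the 6 mice (log2, colour) for the 60 genes of widest range, 1 row per gene and 1 column per mouse, the line parting cre+ from cre-. More rows are set apart by mouse 17 than by the line, as in Ugt1a2 and Acsm3.

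Twist1 and Snai1, the genes deleted elsewhere in the study, carried no floxed allele here. Twist1 read 5.29, 5.15 and 4.93 with cre and 4.86, 5.04 and 4.53 without (0.32, SE 0.20, limma adjusted p = 1). Snai1 read 5.36, 5.25 and 4.66 against 4.92, 4.48 and 5.30 (0.19, SE 0.27, adjusted p = 1). Both lay near background and overlapped between the groups.

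Whether the differences recur where cre came with a deletion was asked in contralateral kidneys, whose arrays share no sample with the 6 here. Cre with Twist1 deletion gave 1 called gene of 12866 (0.00777%, Dglucy) and cre with Snai1 deletion 0 by limma (0%, with 328 at an unadjusted p under 0.05). Over all 12866 genes the differences correlated with those of the healthy kidneys at Pearson r = -0.08 (Twist1 line) and -0.03 (Snai1 line), across genes, which are not independent. Of the 24 listed genes 12 had the same sign in the Twist1 line, 10 in the Snai1 line and 8 in both. Tceanc2 (0.62), Prb1 (-0.33) and R3hcc1l (-0.45) had the same sign and an unadjusted p under 0.05 in the Twist1 line, as did Olfr133 (-0.39) in the Snai1 line. Over all genes that p was reached by 5.15% in the Twist1 line (2.84% higher and 2.32% lower with cre) and by 2.55% in the Snai1 line (1.5% higher and 1.05% lower).

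Ccng2 differed by -0.45 in the Twist1 line and -0.04 in the Snai1 line. The healthy difference exceeded the mean of these by 2.41 (SE 0.36, limma adjusted p = 0.00316), the 1 gene of 12866 to pass that test (0.00777%). That test reuses the 6 healthy kidneys in which Ccng2 was called and the spread of all groups, so it gives no independent support. Aldh1a7 differed by -0.65 and 0.29, and the test of the difference did not pass (-2.83, SE 0.65, adjusted p = 0.533). Averaged over the healthy and both contralateral comparisons, the cre difference passed for 0 genes by limma (0%), with 416 at an unadjusted p under 0.05 (3.23%). The lowest p was that of Tceanc2 (0.50, unadjusted p = 0.00015), which on the probe used was higher with cre in all 3 comparisons. Its 3 other detected probes differed by 0.04 to 0.17 in the healthy kidneys. This average includes the 6 healthy kidneys and is not independent of the values above. Zswim3 (0.41), Gpr135 (-0.29), Sh3d19 (0.42) and Ppm1l (-0.34), among the 10 of lowest p, also had the same sign in all 3, with an adjusted p of 1.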

How the data were processed

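Total RNA of mouse kidney was measured on Illumina bead arrays, and per the submitters' processing notes GenomeStudio 5.0 was used. Per the file headers, the deposited table gives an average signal intensity per probe and array, not normalised, with a detection p-value beside each. The deposited series matrix holds intensity values linear in that signal (r = 1, scale 0.725 to 1.2, column medians 6.4 to 16.1); the kind of scaling is not given in the sources used here, and it served as an alternative. No columns were without a sample.

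The deposited intensities of all 37 arrays were turned into log2 levels by the neqc function of limma 3.58.1 under R 4.3.3, which corrects the background by normexp, adds an offset (16) and applies quantile normalisation. Probes detected (p under 0.05) on at least 3 arrays were kept (24544 of 45281). Of all probes 34885 carried 1 gene symbol, 18 several and 10378 none. Each gene took its kept probe of highest mean (12866 genes, 12855 of them in the RefSeq gene table of GRCm38.p6). A limma model with 12 group means gave two-sided moderated tests on 28.5 total degrees of freedom (residual and prior). They were adjusted by Benjamini-Hochberg over all genes, and the procedure was tested on simulated data. The number of arrays limits the precision, and p-values measure the spread between mice of a group.

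Kidneys of 1 mouse are paired by its number (residual r 0.171 to 0.63 over 12 pairs); the healthy mice have 1 array each. Where no array of a group detected a gene, the fold is at least N-fold, against the higher of each array's lowest detected signal and the gene's own. Named are genes past the adjusted p, then those of lowest p with groups that do not overlap (up to 12 per direction), the 10 of lowest p in the averaged comparison, Twist1, Snai1 and sex-chromosome genes, and low-p or outlying list members. The groups, gene lists and this rule were chosen with earlier results of these data known.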

Additional observations from a re-analysis of the deposited data

Results flagged for a closer look

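The cre difference in Ccng2 was not the same in healthy wild-type and contralateral kidneys. It was 2.17 in healthy mice, -0.45 in contralateral kidneys of the Twist1 line and -0.04 in those of the Snai1 line. The healthy value exceeded the mean of the other 2 by 2.41 (SE 0.36, limma interaction contrast, adjusted p = 0.00316). This contrast reuses the 6 healthy kidneys in which Ccng2 was called, so it is not independent of that call. The spread (SD) was 0.76 within these 6 and 0.237 within the other groups. With the 6 alone the healthy difference did not pass (limma adjusted p = 0.992). All 3 cre- healthy kidneys lay below the lowest of the other 31 arrays (7.15). Groups of 3 were not screened for single outlying kidneys.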

How the results depend on the processing

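The count of called genes in healthy wild-type kidneys was 2. It moved to 1 by quantile normalisation without background correction, with healthy and contralateral arrays only, with the 6 arrays alone (Abhd1) and with these less mouse 17 (Abhd1, chosen after seeing the data), to 4 with array weights, and to 5 and 4 within the E and S forms of sample identifier, with 1 kidney in an arm. Leaving out 1 kidney at a time gave 1 to 7 calls. Without mouse 16 the 7 were Aldh1a7, Ccng2, Cpn1, Hps1, Mpeg1, Pisd-ps3 and Spatc1, without mouse 15 the 5 were Atp10d, Bmp2k, Ccng2, Golph3l and Mettl14, and without mouse 18 they were Bmp2k, Ccng2, Ctsc, Dao and Prcp; without mouse 14 or 19 only Ccng2 was called. With mouse as a random replicate block 2 genes were called, but the healthy mice have 1 array each. With the identifier form as a block in the 6 arrays alone 2 were called, Abhd1 and Aldh1a7, and Ccng2 was not. The averaged comparison gave 0 calls in all its settings but 2 of the leave-outs (0 to 1).

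Some single genes changed sign, none of them among the 2 called. Without mouse 17, which read as female, Xist moved to 0.042, Eif2s3y to -0.21, Kdm5d to -0.28, Uty to -0.12 and Eif2s3x to 0.065. With the 6 arrays alone less that mouse the last 4 were -0.22, -0.28, -0.12 and 0.069. Over the leave-outs Xist ran from -1.40 to 0.042, Eif2s3y from -0.21 to 2.39, Kdm5d from -0.28 to 0.79, Uty from -0.12 to 0.78, Eif2s3x from -0.23 to 0.065, Ddx3x from -0.082 to 0.185, Snai1 from -0.016 to 0.41 and Hspa1b from -1.42 to 0.018. Within identifier form S, Snai1 was -0.23, Eif2s3y -0.50, Uty -0.21 and Mpeg1 0.18. Ddx3x was -0.061 with probes averaged and -0.18 within form E, Eif2s3x was 0.012 with array weights, and Zswim3 was -0.033 in the average with obstructed in place of contralateral kidneys. Dao was -0.15 with the 6 arrays alone, -0.11 with the identifier form as a block and -0.27 with the 6 arrays less mouse 17, where its other probe was taken. Apart from Dao, where another probe was taken, the cause was not tested. Leaving out mouse 17 does not single out its sex.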

Other observations

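Several genes parted the 6 kidneys by mouse and across the cre groups; they were picked after their values were seen. Some genes of the urothelium, the lining of the renal pelvis, were high in mouse 16 with cre and mouse 18 without. The uroplakin Upk1b read 4.74, 4.65 and 8.74 in mice 14 to 16 and 4.34, 7.40 and 4.46 in mice 17 to 19, and Upk2 read 8.32 and 7.02 in mice 16 and 18 and 4.42 to 4.74 in the other 4. The keratin Krt14 and Ly6d had the same 2 kidneys high. Another uroplakin, Upk1a, was highest in mouse 16 (6.54) but lowest in mouse 18 (4.94).

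Mouse 18 was low in Havcr1, the kidney injury molecule of the proximal tubule (5.85 against 9.07 to 10.4 in the other 5), in the urea transporter gene Slc14a2 (4.44 against 6.43 to 8.95) and in Spink6 (4.54 against 8.89 to 10.1). In mice 15 and 17, H2-Aa, a chain of the class II antigen-presenting molecule, read 8.19 and 8.01, and 4.39 to 4.47 in the other 4. Other class II genes did not all share this: H2-Ab1 was higher in the same 2 (9.41 and 9.65 against 8.58 to 8.96), H2-Ea lower in them (9.68 and 9.91 against 10.3 to 10.7), H2-Eb1 in mouse 18 (9.46) was level with them, and Cd74 ran from 10.1 to 10.6 in all 6. Abhd16a and Ndufb10, on the same chromosome 17, and the antiprotease genes Serpina1a, Serpina1b and Serpina1d of chromosome 12 were high in the same 2 kidneys. Mice 17 and 19, low in Ccng2, were also low in the lysosomal proteases Ctsc (5.38 and 4.86, against 7.95 to 9.12 in the other 4) and Prcp (7.39 and 7.69, against 9.99 to 10.91).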
